A study of Mus musculus with 2 samples.

Results

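The microRNA (miRNA) genes Mir126a, Mir126b, Mir143 and Mir145a, known from the cells of blood vessels, were taken by gene name from the GENCODE M21 annotation and are 4 of the 2202 miRNA genes in the count tables. The tables came from 2 small RNA libraries of tissue labelled as a layer of hippocampus, which the labels do not name further, from female B6CASTF1/J mice, an F1 hybrid strain, at 36 days of age, with no treatment or altered allele given in the labels. Both libraries belong to 1 group, biological replicates 1 and 2, so no condition was compared. The labels give the samples separate biosample entries and 1 donor entry, and whether they stem from separate animals is not stated; differences between them may be technical in part.

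A miRNA gene is transcribed as a longer RNA, from which a hairpin is cut and trimmed to a mature strand that guides repression of messenger RNAs. The mature strand pairs with its targets mainly through its seed, bases 2 to 8. Mir126a is processed from transcripts of Egfl7, a gene of blood vessel lining (endothelium), and is known for sustaining growth factor signalling in endothelial cells through repression of Spred1 and Pik3r2. Mir126b is annotated on the opposite DNA strand of the same place. Mir143 and Mir145a, which are made from a shared transcript, are known from smooth muscle cells and pericytes, the mural cells around vessels, where they favour the contractile state. The labels give tissue as the material and no sort of cells, so in these bulk libraries a lower level from fewer cells of a type cannot be told apart from less RNA per cell.

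The Mir126a hairpin (ENSMUSG00000065540.1) has 73 bases and lies at chr2:26591357-26591429 on the plus strand (mm10). It overlaps an exon in 1 of the 19 annotated transcripts of Egfl7 and falls in an intron of 8; it also lies in an intron of the single transcript of Gm20532. The Mir126b hairpin (ENSMUSG00000105799.1) has 58 bases at chr2:26591363-26591420 on the minus strand, inside the Mir126a hairpin and antisense to Egfl7. Both hairpins are shown because strand alone separates their reads, with the mature strands held by the RefSeq table (GRCm38.p6) in capitals.
Mir126a: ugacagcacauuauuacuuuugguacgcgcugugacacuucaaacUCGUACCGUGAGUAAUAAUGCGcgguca
Mir126b: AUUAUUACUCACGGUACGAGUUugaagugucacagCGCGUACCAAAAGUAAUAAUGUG

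A comparison of the 2 sequences found all 58 bases of Mir126b to be the reverse complement of bases 7 to 64 of the Mir126a hairpin. The mature strands are shown next because they give each RNA its own seed, here in capitals.
miR-126a-3p: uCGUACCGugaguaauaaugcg
miR-126b-5p: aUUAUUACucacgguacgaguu
miR-126b-3p: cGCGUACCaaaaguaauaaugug
The strand miR-126a-3p (22 bases) takes bases 46 to 67 of its hairpin, and 19 of them are complementary to miR-126b-5p. The strand miR-126b-3p lies opposite bases 7 to 29, in the other arm. The 3 seeds differ, and none occurs at bases 2 to 8 of another of the 1738 mature miRNAs in the table. For Mir126a the table holds no mature strand from the arm opposite miR-126b-3p, so a seed from that arm was not compared. The counts do not separate the arms of a hairpin. Which share of the Mir126a reads carries the seed of miR-126a-3p was therefore not tested. None of the 3 mature sequences occurs in another of the 2202 annotated hairpins, and copies outside annotated hairpins were not looked for.

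**Figure D1:**
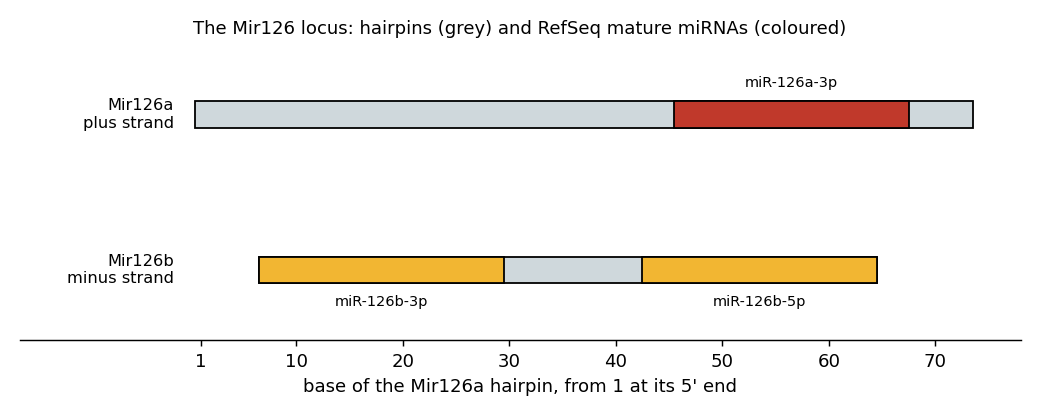
Map of the Mir126 locus, with the base of the Mir126a hairpin on the horizontal axis (base 1 at its 5′ end) and 1 bar per hairpin, Mir126a on the plus and Mir126b on the minus strand. Mir126b spans bases 7 to 64, and its 5p strand lies opposite miR-126a-3p, which spans bases 46 to 67.

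Reads at this locus fell on the Mir126a strand in both libraries. The deposited tables count each gene's reads in 3 columns that carry no names, read here as counts without regard to strand, in sense and in antisense orientation. The sense column was taken to be the one with the larger total. Over the 2138 genes with no miRNA gene opposite it held 2702660 reads in replicate 1 and 3383315 in replicate 2, against 102 and 108 in the antisense column. With the columns exchanged, the reads at the Mir126 locus would count for Mir126b. Mir126a held 42505 sense reads in replicate 1 and 32684 in replicate 2, with 0 antisense reads in either. Mir126b held 0 sense reads in both libraries and 42504 and 32682 antisense reads, equal to the sense count of Mir126a less 1 read in replicate 1 and less 2 in replicate 2. With a count of 0 taken to allow up to 3 reads, Mir126a was at least 14168-fold above Mir126b in replicate 1. In replicate 2 it was at least 10895-fold above. These limits cover counting error only.

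Counted without strand, Mir126a all but vanished. It kept 1 of its 42505 reads in replicate 1 and 2 of 32684 in replicate 2, which are 0.00235% and 0.00612% of the sense count, and Mir126b had 0 in both. The remaining reads were entered as ambiguous between the genes. They made up 18.9% of all 225467 ambiguous reads in replicate 1 and 12.5% of 260829 in replicate 2. Among the 32 pairs of miRNA genes annotated on opposite strands, the Mir126 pair lost the second most reads in replicate 1 and the third most in replicate 2; the pair of Mirlet7e and Gm25927 lost the most in both.

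Loss without strand was a feature of opposite-strand genes and did not touch the mural pair. Mir143 had 13880 reads in replicate 1 and 23327 in replicate 2, and Mir145a had 526 and 760, the same numbers with and without strand. Both had 0 antisense reads. At the same 3-read limit this allows up to 0.0216% of the sense count of Mir143 in replicate 1 and 0.0129% in replicate 2. For Mir145a the limits were 0.570% and 0.395%. Detection required 10 or more sense reads in each library, which 376 of 2202 genes (17.1%) reached, 3 of the 4 vascular genes among them. Of the 376, 26 (6.91%) fell under that minimum in both libraries without strand. All 26 lie opposite another miRNA gene, and Mir126a was 1 of them.

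**Figure D2:**
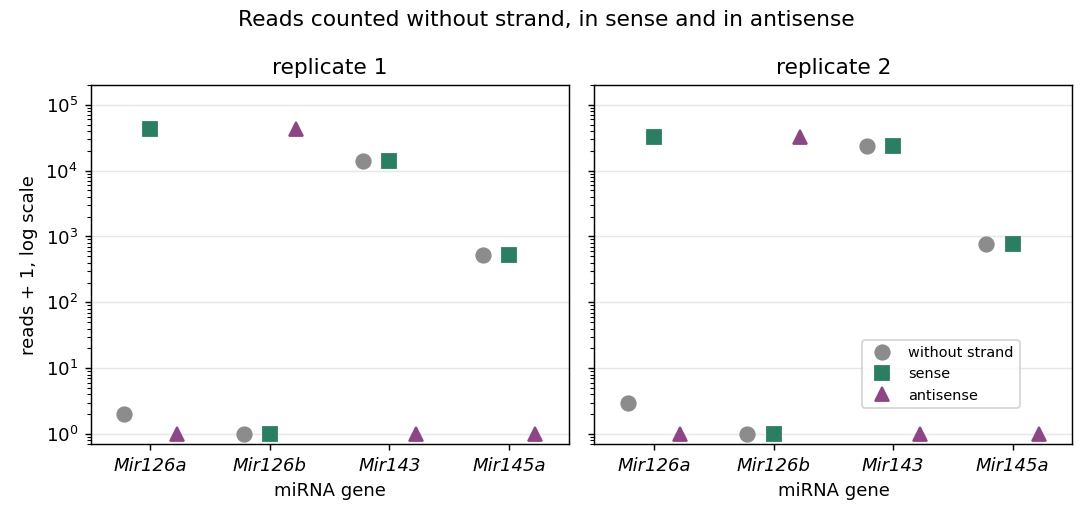
Reads plus 1 (log scale) for each of the 4 genes in the columns without strand (circles), sense (squares) and antisense (triangles), replicate 1 left and replicate 2 right. The sense reads of Mir126a, 42505 and 32684, reappear as antisense reads of Mir126b, while the circles and squares of Mir143 and of Mir145a stand level.

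Endothelial Mir126a was the most abundant of the 4, and Mir143 and Mir145a followed in the same order in both libraries. Levels are sense reads per 1000000 sense reads on all miRNA genes (CPM), over totals of 2928141 reads in replicate 1 and 3644157 in replicate 2. Mir126a stood at 14516 CPM in replicate 1, with a 95% interval (exact, Clopper-Pearson) of 14379 to 14654, and 8969 CPM in replicate 2 (8872 to 9066), ranks 11 and 23 of 2202. Its share of assigned reads was 1.45% and 0.897%. Its rank was high in both libraries, and its intervals did not overlap between them. Reads with several places in the genome, 38.9% of all reads in replicate 1 and 45.8% in replicate 2, entered neither totals nor ranks. Genes made from several copies may therefore stand too low, and levels and ranks hold among assigned reads only.

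Mir143 stood at 4740 CPM in replicate 1 (4662 to 4820) and 6401 CPM in replicate 2 (6320 to 6484), ranks 40 and 34. Mir145a stood at 180 CPM (165 to 196) and 209 CPM (194 to 224), ranks 177 and 171. Both mural genes were higher in replicate 2, the library in which Mir126a was lower. Mir126b, with 0 reads, lay under 1.02 CPM in replicate 1 and under 0.823 CPM in replicate 2, the levels of 3 reads. Together the 4 genes held 56911 and 56771 reads, 1.94% and 1.56% of the assigned reads. Mir126a supplied 74.7% of that sum in replicate 1 and 57.6% in replicate 2, and Mir143 24.4% and 41.1%.

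**Figure D3:**
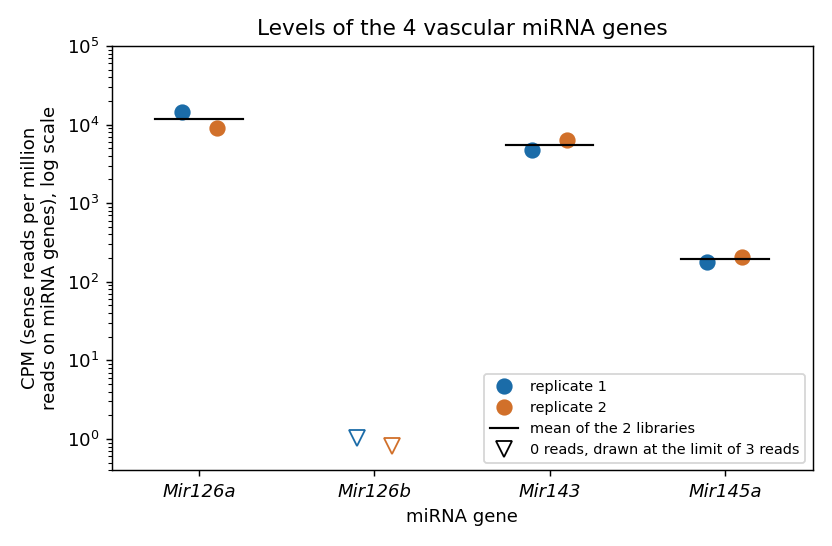
Level of each gene in CPM (log scale), 1 point per library and a line at the mean of 2. Mir126a lies at 14516 and 8969 CPM, Mir143 at 4740 and 6401 and Mir145a at 180 and 209; open triangles mark Mir126b, with 0 reads, at the level of 3 reads.

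Mir143 (ENSMUSG00000065445.3, chromosome 18 from 61649196 to 61649258) and Mir145a (ENSMUSG00000065592.2, 61647825 to 61647894) lie 1301 bases apart on the minus strand, and no other gene is annotated over either hairpin. Although they are neighbours, Mir143 held 26.4 reads per read of Mir145a in replicate 1 (exact 95% interval 24.2 to 28.8) and 30.7 in replicate 2 (28.6 to 33.04). Their ratio was 1.16-fold higher in replicate 2, with intervals that overlap narrowly. Each read comes from 1 mature strand, so counts were not divided by length; per base of hairpin (63 and 70 bases) the ratios were 29.3 and 34.1. The counts do not separate the arms of a hairpin, and neither gene shares a stretch of 20 bases with another annotated hairpin.

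The ratio of Mir126a to either mural gene differed more between the libraries than the ratio within the mural pair. Mir126a held 3.06 reads per read of Mir143 in replicate 1 (exact 95% interval 3.004 to 3.12) and 1.40 in replicate 2 (1.38 to 1.42), a 2.19-fold difference between libraries. Against Mir145a, the ratio of Mir126a was 80.8 (74.1 to 88.2) and 43.01 (40.02 to 46.3), a 1.88-fold difference. These ratios do not depend on how the libraries are scaled. Mir126a led Mir143 in both libraries, also per hairpin base (2.64 and 1.21).

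Between the libraries, Mir126a was higher in replicate 1, and Mir143 and Mir145a were higher in replicate 2. Mir126a was 1.62-fold higher in replicate 1 (exact 95% interval 1.60 to 1.64; log2 ratio of replicate 2 to replicate 1 -0.69). Mir143 was 1.35-fold higher in replicate 2 (1.32 to 1.38; log2 ratio 0.43). Mir145a was 1.16-fold higher in replicate 2 (1.04 to 1.30; log2 ratio 0.21). An exact binomial test of the reads (two-sided), adjusted by Benjamini-Hochberg over 474 genes, called all 3, with adjusted p = 2.07e-175 for Mir143, 0.0166 for Mir145a and a value too small for double precision for Mir126a. Mir126b had no reads to test.

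The call of all 3 is read against a high background, because the test takes counting error as the only noise and compares these 2 libraries, not conditions. It called 275 of the 474 genes (58.0%), of which 150 (31.6%) had the higher level in replicate 2 and 125 (26.4%) in replicate 1. With all reads of the table as denominator that split was 194 against 73. The call of Mir145a was lost under the TMM scaling of edgeR (adjusted p = 0.05003 in the exact binomial test, just over the threshold of 0.05) and with totals that leave out Mirlet7g, the most abundant gene (0.120); over the other alternatives its adjusted p ran from 2.22e-06 to 0.0250. Of 295 genes that averaged 50 or more reads, 22.7% differed between the libraries by at least as much as Mir126a, 42.7% by at least as much as Mir143 and 66.4% by at least as much as Mir145a. The median difference over these genes was 1.27-fold.

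**Figure D4:**
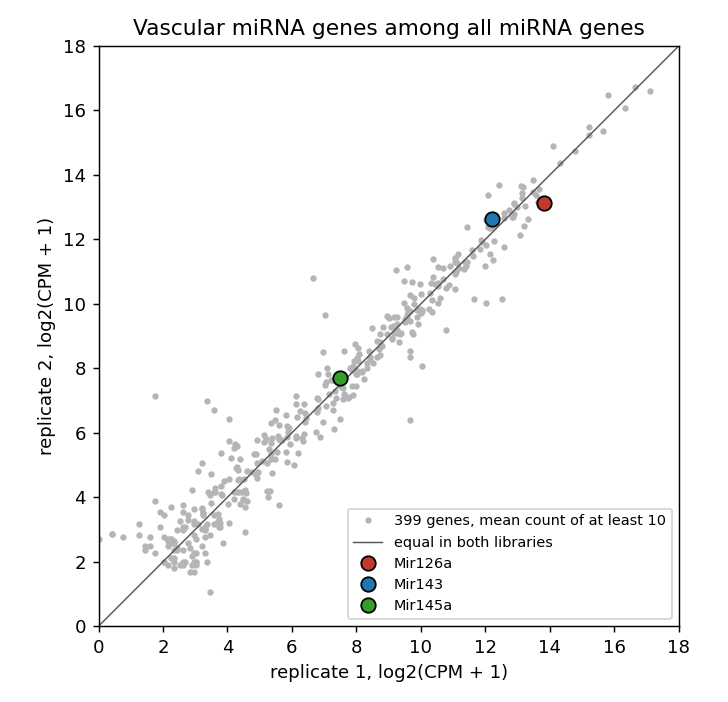
Level in replicate 2 against replicate 1, both as log2(CPM + 1), for 399 miRNA genes that averaged 10 or more reads (grey) and for 3 vascular genes (coloured); the line marks equal levels. Mir126a lies below the line (log2 ratio -0.69), and Mir143 (0.43) and Mir145a (0.21) lie above it, within the cloud of other genes.

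Mir126a took rank 13 by mean level, at 11742 ± 3922 CPM (SD, n = 2), between Mir151 (12478 ± 719 CPM) and Mir652 (11407 ± 10.9 CPM). Mir143, at 5571 ± 1174 CPM, took rank 36 between Mir361 (6302 ± 232 CPM) and Mir487b (5173 ± 1457 CPM). Mir145a, at 194 ± 20.4 CPM, took rank 173 between Mir380 (196 ± 87.9 CPM) and Mir500 (190 ± 67.3 CPM). None of the 6 neighbours differed from its vascular gene by more than the larger of their SDs, so the ranks around them are not fixed. Mir126a and Mir143 did not overlap across libraries, since the lower value of Mir126a, 8969 CPM, lay above the higher of Mir143, 6401 CPM.

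Genes with levels most like each vascular gene were taken as the 3 nearest of 255 genes that averaged 100 or more reads, by distance in log2(CPM + 1) over the 2 libraries. Nearest to Mir126a were Mir382 (distance 0.19), Mir132 (0.36) and Mir151 (0.45). Mir382 was at 12764 CPM in replicate 1 and 9121 CPM in replicate 2, lower in replicate 2 as Mir126a was. Nearest to Mir143 were Mir487b (0.20), Mir30a (0.26) and Mir92b (0.29). Nearest to Mir145a were Mir702 (0.24), Mir218-2 (0.30) and Mir505 (0.30). With 2 libraries this likeness describes levels only. The choice used both libraries, so it favours genes that share a direction.

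Other miRNAs known from endothelium and vessel growth did not move one way between the libraries. All 24 genes of that list were in the tables, 21 were detected and tested, the read test placed 10 higher in replicate 2 and 6 higher in replicate 1, and 5 were not called; over all genes tested, 31.6% and 26.4% were called in these directions. Their median log2 ratio was 0.05, against 0.04 over all 474 genes tested, and their summed level was 49534 CPM in replicate 1 and 49820 CPM in replicate 2. The 3 most abundant were Mir23b (20434 and 21106 CPM), Mir23a (8014 and 8278 CPM) and Mir221 (9338 and 5501 CPM). Mir221, which in endothelium is known for restraining growth through Kit, was 1.70-fold higher in replicate 1, the direction of Mir126a. Many genes of this list are also made in neurons and glia. Mir145b, which shares the number of Mir145a, had 0 reads in both libraries.

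Lists of other cell types are given beside the vascular genes, and their part in the differences above was not tested. For red blood cells, which travel in the vessels, 3 of 3 tested genes were called higher in replicate 1, the direction of Mir126a and of 26.4% of all genes tested. Their list summed to 1178 CPM in replicate 1 and 341 CPM in replicate 2, with Mir451a at 1039 and 270 CPM, Mir144 at 115 and 57.6 CPM, Mir486 at 22.2 and 12.1 CPM, and Mir451b at 0 reads. The median log2 ratio of the list was -0.99. Mir144 (chr11:78073005-78073070) and Mir451a (chr11:78073170-78073241) are neighbours on the plus strand, so the 3 calls do not come from 3 separate places.

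Genes listed for choroid plexus and ciliated cells summed to 1147 CPM in replicate 1 and 2661 CPM in replicate 2, the direction of Mir143. Of the list's 4 tested genes, 2 were called higher in replicate 2 (31.6% of all genes tested) and 1 higher in replicate 1 (26.4%). Mir204 was at 593 and 2101 CPM, Mir34c at 421 and 446 CPM and Mir449a at 124 and 80.4 CPM. Almost all of the rise in the sum lay in Mir204. Mir449b was at 0 reads, and the median log2 ratio was 0.95. The leukocyte and microglia list summed to 3710 and 4619 CPM, with 3 of 7 tested genes called in the direction of replicate 2 and 1 in that of replicate 1 (median log2 ratio 0.17), beside 58.0% of all genes tested that were called either way. It was led by Mir181d (2117 and 2736 CPM), which made up most of the sum in both libraries. Mir150 (814 and 1230 CPM) and Mir146 (674 and 545 CPM) followed. Mir142b was at 0 reads, while Mir142, annotated on the opposite strand of the same place, was at 57.4 and 64.8 CPM. Which cells these reads came from was not tested.

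Striated muscle miRNAs were listed because muscle is another source of contractile-cell RNA. The list of 10 genes summed to 249 CPM in replicate 1 and 186 CPM in replicate 2, of which Mir206 made up 234 and 174 CPM, and Mir499 stood at 10.9 and 7.96 CPM. Mir206 was thus near the level of Mir145a (180 and 209 CPM). Of 3 tested genes, 1 was called, Mir206, higher in replicate 1, the direction of 26.4% of all genes tested. Over all genes tested, 58.0% were called either way. The median log2 ratio of the muscle list was -0.41. Mir133a-1, Mir133a-2, Mir133b and Mir1a-1 had 0 reads, but Mir1a and Mir133a come from more than one gene copy, and reads with several places in the genome were counted apart.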

How the data were processed

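The authors deposited raw read counts per annotated miRNA gene; the notes filed with the tables name assembly mm10 and annotation M21. The aligner is not given in the sources used here. Insert size was under 30 nucleotides, per the labels. The columns carry no names; column 3 was read as sense because its total exceeded that of column 4 in both libraries. The 4 rows that name no gene held 69.5% and 65.3% of reads and were left out of totals; reads with several places were 38.9% and 45.8%.

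CPM used sense totals, with a pseudocount of 1 CPM in log2 values. One library against 1 leaves edgeR no residual spread, so genes with 10 or more reads in all went into an exact binomial test given the totals, Benjamini-Hochberg threshold 0.05, which was tried on simulated counts. Intervals are exact at 95%. Named genes were the 4, the 3 highest detected of each list, neighbours in rank and the 3 nearest in level. Mirlet7e, Gm25927, Mirlet7g, Mir142, Mir145b and other genes at 0 were picked with their values in view. The members and lists were chosen with earlier results of these data known. Mir486b and Mir142hg, listed, matched no row. Sequences are from RefSeq, GRCm38.p6, where 2 of the 4 genes matched; none is shown for Mir143 and Mir145a. Alternatives were other scalings (edgeR 4.0.16, DESeq2 1.42.0), filters, pseudocount, strand column, detection minimum and single libraries. Python 3.11.15, scipy 1.17.1 and R 4.3.3 were used.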

Additional observations from a re-analysis of the deposited data

How the results depend on the processing

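Of 85 alternative values, 67 stayed on their side of the threshold, within their spread or interval or, for counts of genes, within a fixed fold limit of the main value. Some of the 67 could not have moved. Each single library lies within the SD of the mean by construction, and Mir126b had no reads under any setting. The pseudocount does not enter the read test and cannot turn the direction of a ratio. A count filter changes the adjusted p but no log2 ratio. With all reads of the column as denominator, the mean levels were 3773 CPM for Mir126a, 1835 for Mir143 and 63.6 for Mir145a, lower by construction, and 73 genes were called higher in replicate 1. With totals without the most abundant gene, Mir145a was at 220 CPM on average and its log2 ratio, 0.14, was no longer called; under TMM it was 0.18, not called. Mir126a kept its direction and call at log2 ratios from -0.76 to -0.51 and Mir143 from 0.36 to 0.62 under the scalings, filters and pseudocounts tried. Counted without strand, Mir126a was at 0.481 CPM on average and could not be tested, and its ratios were 7.2e-05 and 8.57e-05 to Mir143 and 0.0019 and 0.00263 to Mir145a in replicates 1 and 2, because its reads became ambiguous. Per hairpin base, Mir126a to Mir143 gave 2.64 and 1.21 and Mir143 to Mir145a 29.3 and 34.1. With at least 1 read in each library 577 genes were detected, and with at least 100 reads 243; 3 of the 4 vascular genes were detected at each minimum. Leaving out a replicate leaves 1 library, whose values stand in the report. No paired analysis was possible because there was 1 group. Depth limits Mir126b to a bound and makes Mir145a, with 526 and 760 reads, the least precise of the 3 detected vascular genes.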
